A study of Rattus with 27 samples.

Results

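The Egr and Nr4a families are 7 immediate early transcription factor genes, Egr1, Egr2, Egr3, Egr4, Nr4a1, Nr4a2 and Nr4a3. They were taken by name from the 14506 genes with a probe of their own on the array. All 7 were measured, each by 1 probe, in brain, in white blood cells (labelled blood) and in spleen at 6 h, on 27 arrays from 9 Sprague Dawley rats, 3 for every tissue and group.

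The vehicle-labelled and model-labelled rats had undergone middle cerebral artery occlusion (MCAO), a surgical block of a main brain artery that is used as a model of ischaemic stroke. The sham-labelled rats had anaesthesia and exposure of the vessels alone. The protocol field speaks of a vehicle control and of rats that received 25 mg/kg YJ (in the title, Yiqi Jiedu formulae), but the sample titles read vehicle and model. No label ties YJ to either title. Neither group is therefore called treated here, and what vehicle minus model means for the drug is unknown. Brain and spleen were made into homogenates and white cells were separated from blood, so a value averages all cells present, and fewer cells of a type cannot be told apart from less RNA per cell. Age, sex, the occlusion method and the part of the brain taken are not given in the sources used here.

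Egr genes encode zinc finger proteins that bind GC-rich promoter sites, and Nr4a genes encode orphan nuclear receptors whose activity is set mainly by how much of the protein is made. Both are switched on within minutes, without new protein synthesis, by calcium, MAP kinase, serum response factor and CREB signalling, and their transcripts are short-lived. In the brain they report neuronal activity and injury, and in lymphocytes they follow antigen receptor signalling. The Nab proteins bind Egr1, Egr2 and Egr3 and repress them, and Nr4a1 and Nr4a2 can pair with retinoid X receptors.

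Values are RMA intensities read as log2, and a difference of 1 is a doubling of the signal. A gene rose or fell where limma gave an adjusted p under 0.05 over all 14506 genes. Probe values of different genes are not set against each other. The labelled tissues carried their markers: 6 neuron markers averaged 9.62 to 10.23 per array in brain, against 4.05 to 4.40 in white blood cells and 4.33 to 4.68 in spleen, and 7 T cell markers averaged 7.76 to 8.77 in white blood cells and 6.38 to 7.84 in spleen, against 3.86 to 4.22 in brain. The white blood cell samples also held erythroid signal (7 markers, 8.15 to 11.13) and platelet signal (3 markers, 11.71 to 12.23). Brain arrays differed in regional markers. Relative to the sham mean, cortex markers (3 measured of 7) lay at -1.88 in vehicle rat 2 and -2.69 in sham rat 5, against 0.30 to 1.36 in the others. Hypothalamus and thalamus markers (10 measured of 11) lay at 2.10 in sham rat 5, against -1.28 to -0.58 in the other 8. Brain differences between groups for the 7 genes are therefore given with and without the arrays of vehicle rat 2 and sham rat 5. Choroid plexus markers (5) lay at 1.15 in vehicle rat 5 and 2.51 in model rat 3, against -0.28 to 0.21 in the other 7, and striatum markers (6) at 1.24 in vehicle rat 4 and 1.59 in model rat 3, against -0.52 to 0.49. These arrays were left out singly.

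The first question was how model-labelled brains differed from sham brains. Of the 7 genes 5 rose, Nr4a1, Egr2, Egr1, Nr4a3 and Egr4, where 1.08% of all genes rose. The members' median difference was 1.87 and that of all genes 0.03. In 6 of the 7, all but Nr4a2, every model-labelled array lay above every sham array, a separation in this direction that 11.7% of all genes showed. Ranked by absolute difference among the 14506 genes, Nr4a1 was at place 10, Egr2, dim in sham brains, at 15, Egr1 at 26 and Nr4a2 at 455.

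**Figure D1:**
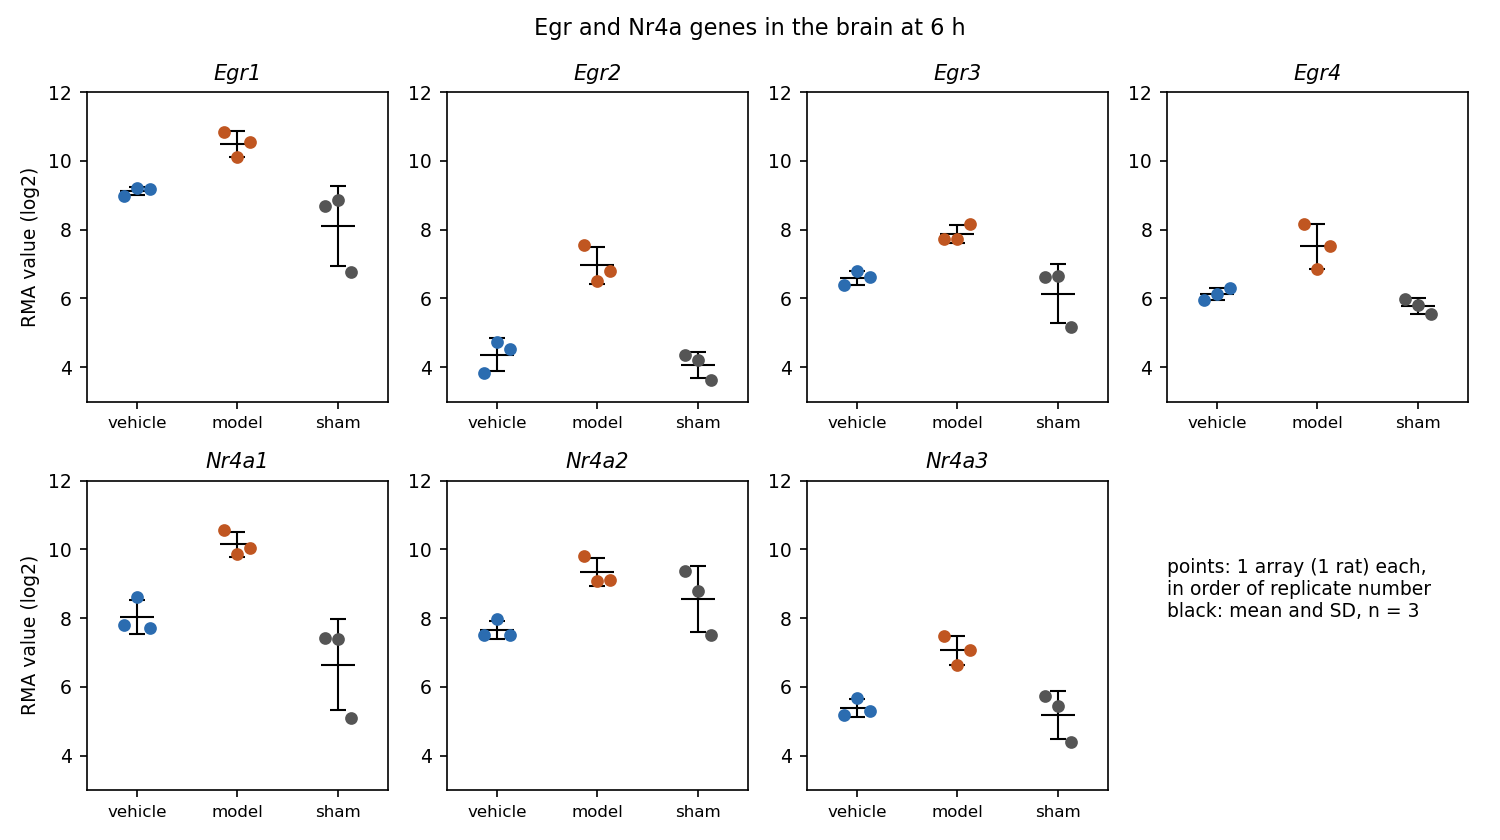
RMA values (log2) of the 7 genes in the 9 brain arrays, with vehicle-labelled, model-labelled and sham rats from left to right. Each point is 1 rat, ordered by replicate number, and the black marks are the mean and SD of 3. The model-labelled rats are the highest group for all 7 genes by mean, and sham rat 5, the last grey point, is the lowest sham array for all 7.

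Among the Egr genes, Egr1 (Zif268), a factor of synaptic plasticity (probe 10800919), read 10.84, 10.10 and 10.54 in the brains of model-labelled rats 1, 2 and 3, against 8.70, 8.87 and 6.78 in the brains of sham rats 3, 4 and 5. The groups were 1.23 apart at their nearest arrays, and sham rat 5 lay well under the other sham rats. Egr1 rose by 2.38 ± 0.46 (SE), a 5.19-fold difference, with adjusted p = 0.0466. Egr2 (Krox20), which in mouse directs hindbrain patterning and Schwann cell myelination (probe 10832802), read 7.56, 6.52 and 6.80 in model-labelled brains, against 4.35, 4.22 and 3.62 in sham brains. It was separated by 2.17, and all 3 sham arrays lay under the median of all probe values of their array. Egr2 rose by 2.90 ± 0.32 (95% interval 2.19 to 3.61, adjusted p = 0.00261), a 7.45-fold difference as estimated. Since a sham signal this dim can be background, that ratio may be too small. It is still not a lower bound, because the estimate has the error given by its interval.

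Egr3, which in mouse is needed for muscle spindles (probe 10781337), read 7.74, 7.72 and 8.16 in model-labelled brains and 6.61, 6.66 and 5.16 in sham brains. Its difference of 1.73 ± 0.35 did not pass (adjusted p = 0.0541), although the arrays did not overlap. Egr4, which in mouse is needed for male fertility (probe 10863676), read 8.16, 6.86 and 7.53 in model-labelled brains and 5.99, 5.80 and 5.54 in sham brains. Egr4 had the tightest sham values of the 7 genes (SD 0.23) and the widest model-labelled values (SD 0.65). It rose by 1.74 ± 0.28 (3.34-fold, adjusted p = 0.0181).

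Among the nuclear receptors, Nr4a1 (Nur77), which growth factors and membrane depolarisation induce (probe 10899387), read 10.55, 9.85 and 10.04 in model-labelled brains, against 7.43, 7.40 and 5.11 in sham brains. It had the largest difference of the 7 genes in this comparison, at 3.50 ± 0.55 (11.3-fold, adjusted p = 0.0169), and the widest gap between the groups, 2.42. The ratio rests partly on a dim value, since sham rat 5, at 5.11, lay under the median probe value of its array. Nr4a3 (NOR-1), the family member first described in cultured neurons (probe 10868940), read 7.48, 6.63 and 7.08 in model-labelled brains and 5.74, 5.44 and 4.41 in sham brains, and rose by 1.87 ± 0.33 (3.65-fold, adjusted p = 0.0312). Its value in sham rat 5, 4.41, also lay under the array median. Nr4a2 (Nurr1), which dopamine neurons need for their identity (probe 10845384), read 9.81, 9.09 and 9.10 in model-labelled brains and 9.38, 8.78 and 7.50 in sham brains. The Nr4a2 groups overlapped, and its difference of 0.78 ± 0.41 did not pass (95% interval -0.14 to 1.70, adjusted p = 0.421).

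How firmly these calls held depended on single arrays. With each of the 9 brain arrays left out in turn, Egr2 passed the threshold all 9 times, Egr4 and Nr4a1 6 times, Nr4a3 4 times and Egr1 and Egr3 2 times each. The number of members called fell to 1 without model rat 3, the brain with the most choroid plexus and striatum signal, to 2 without any one of model rat 1, model rat 2 and sham rat 4, and to 3 without vehicle rat 5. The share of all genes called, in either direction, was 1.16% with all 9 arrays, and in these fits 0.483%, 0.6%, 0.545%, 0.496% and 0.8%, in the order just given. Without vehicle rat 2, 6 members and 1.76% of all genes were called, and Egr3 passed too. Without model rat 3 the differences of the 6 genes other than Nr4a2 were 1.59 to 3.55. Leaving out sham rat 5 and vehicle rat 2 together gave 6 called genes, with smaller differences and, except for Egr4, smaller errors: 2.73 ± 0.26 for Nr4a1, 2.68 ± 0.25 for Egr2, 1.71 ± 0.19 for Egr1, 1.62 ± 0.29 for Egr4, 1.47 ± 0.23 for Nr4a3 and 1.24 ± 0.16 for Egr3, with adjusted p from 0.0004 to 0.0181, where 1.88% of all genes rose. Nr4a2 was at 0.25 ± 0.25 (adjusted p = 0.733).

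The next comparison set vehicle-labelled brains against the same sham brains. None of the 7 genes passed in limma, and 1 of them, Nr4a1, had an unadjusted p under 0.05 (0.0312). Of all genes 0.0483% passed and 9.33% had an unadjusted p under 0.05. Nr4a1 read 7.81, 8.60 and 7.70 in vehicle-labelled rats 2, 4 and 5, above the 3 sham values given for it by at least 0.27, with a difference of 1.39 ± 0.55 (95% interval 0.15 to 2.63, adjusted p = 0.468). Egr1 read 8.98, 9.21 and 9.17, above its sham values by at least 0.11, with a difference of 1.00 ± 0.46 (adjusted p = 0.549). Nr4a1 and Egr1 were the only members whose vehicle-labelled and sham brains did not overlap, both in the higher direction, in which 7.93% of all genes were separated.

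The other Egr genes and Nr4a3 overlapped with sham. Egr2 read 3.83, 4.74 and 4.53 in vehicle-labelled brains, Egr3 6.40, 6.80 and 6.61, Egr4 5.96, 6.13 and 6.29 and Nr4a3 5.19, 5.68 and 5.30. Their differences from sham lay between 0.19 and 0.46, with intervals that reached 1.24 for Egr3 and 1.01 for Egr2, so rises of about a doubling are not excluded by these arrays. Nr4a2 lay the other way, at 7.51, 7.97 and 7.52 in vehicle-labelled brains, where 2 of 3 sham arrays were higher than all of them. Its difference was -0.89 ± 0.41 (adjusted p = 0.550). Without sham rat 5 and vehicle rat 2, Nr4a2 was the 1 member called in this comparison, with a difference of -1.34 ± 0.28 (adjusted p = 0.0466) where 0.31% of all genes were called lower. Over its 20 alternatives the adjusted p of Nr4a2 ran from 0.0466 to 0.795.

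Sham rat 5 weighed on the differences from sham for most members. Its brain array was the lowest of the 3 sham arrays for all 7 genes, with a median difference of -1.48 from the mean of the other two. Without the pair of arrays, the vehicle-labelled difference was 0.74 ± 0.29 for Nr4a1, 0.40 ± 0.21 for Egr1 and 0.07 ± 0.17 for Egr3, and Nr4a3 changed sign to -0.10 ± 0.25. The rat's spleen array was the lowest sham spleen for 6 of 7 genes, all but Egr4, and its white blood cell array the lowest for 4 of 7. Set beside vehicle rat 2, whose cortex markers were also low, sham rat 5 had 5.11 for Nr4a1 where vehicle rat 2 had 7.81, and 6.78 for Egr1 where vehicle rat 2 had 8.98. For Nr4a2 the 2 arrays were at 7.51 in vehicle rat 2 and 7.50 in sham rat 5. The 2 arrays were not alike in region, since hypothalamus and thalamus markers lay at 2.10 in sham rat 5 and -0.58 in vehicle rat 2. They also differed in group, so region and group cannot be told apart here. These are single arrays, with no test.

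Compared directly, vehicle-labelled brains read lower than model-labelled brains for all 7 genes with no overlap, whereas 11.5% of all genes were separated in this direction. These are the arrays already given, and this comparison shares each of its groups with a comparison above. Egr2 was the 1 member that fell, with a difference of -2.59 ± 0.32 (adjusted p = 0.0310), where 0.0483% of all genes fell. All 3 vehicle-labelled values of Egr2 lay under their array medians, so the size of its difference is limited by the dim signal. By absolute difference Nr4a1 was at place 6 of the 14506 genes, and Egr2 at place 2 with that limit.

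The other 6 did not pass with all 9 brain arrays. Nr4a1 differed by -2.11 ± 0.55 (adjusted p = 0.183), Nr4a3 by -1.67 ± 0.33 (adjusted p = 0.121) and Nr4a2 by -1.67 ± 0.41 (adjusted p = 0.175). Egr4 differed by -1.39 ± 0.28 (adjusted p = 0.122), Egr1 by -1.37 ± 0.46 (adjusted p = 0.254) and Egr3 by -1.27 ± 0.35 (adjusted p = 0.202). The unadjusted p of all 7 lay under 0.05, as it did for 14.3% of all genes. The 95% intervals of all 7, which are unadjusted and come from the same test, therefore excluded 0 and add nothing to it.

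The calls in this comparison depended on which arrays were in the fit. Without sham rat 5, which is in neither group, 6 of the 7 genes fell, all but Egr4 (adjusted p = 0.0787), where 0.207% of all genes fell, and the differences themselves stayed as they were. Without sham rat 5 and vehicle rat 2, the same 6 fell beside 0.221% of all genes, with differences of -2.33 for Egr2, -2.00 for Nr4a1, -1.59 for Nr4a2, -1.57 for Nr4a3, -1.30 for Egr1 and -1.17 for Egr3 and adjusted p from 0.00861 to 0.0316, and Egr4 was at -1.31 ± 0.29 (adjusted p = 0.0860). Conversely, no member was called without any one of model rats 1 and 3, sham rats 3 and 4 and vehicle rats 2 and 5, where the adjusted p of Egr2 lay between 0.0614 and 0.176 and at most 1 of all 14506 genes was called, and none with only the 2 groups in the fit (Egr2 adjusted p = 0.0581). Over the 20 alternatives the adjusted p of Egr2 ran from 6.39e-07 to 0.964.

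**Figure D2:**
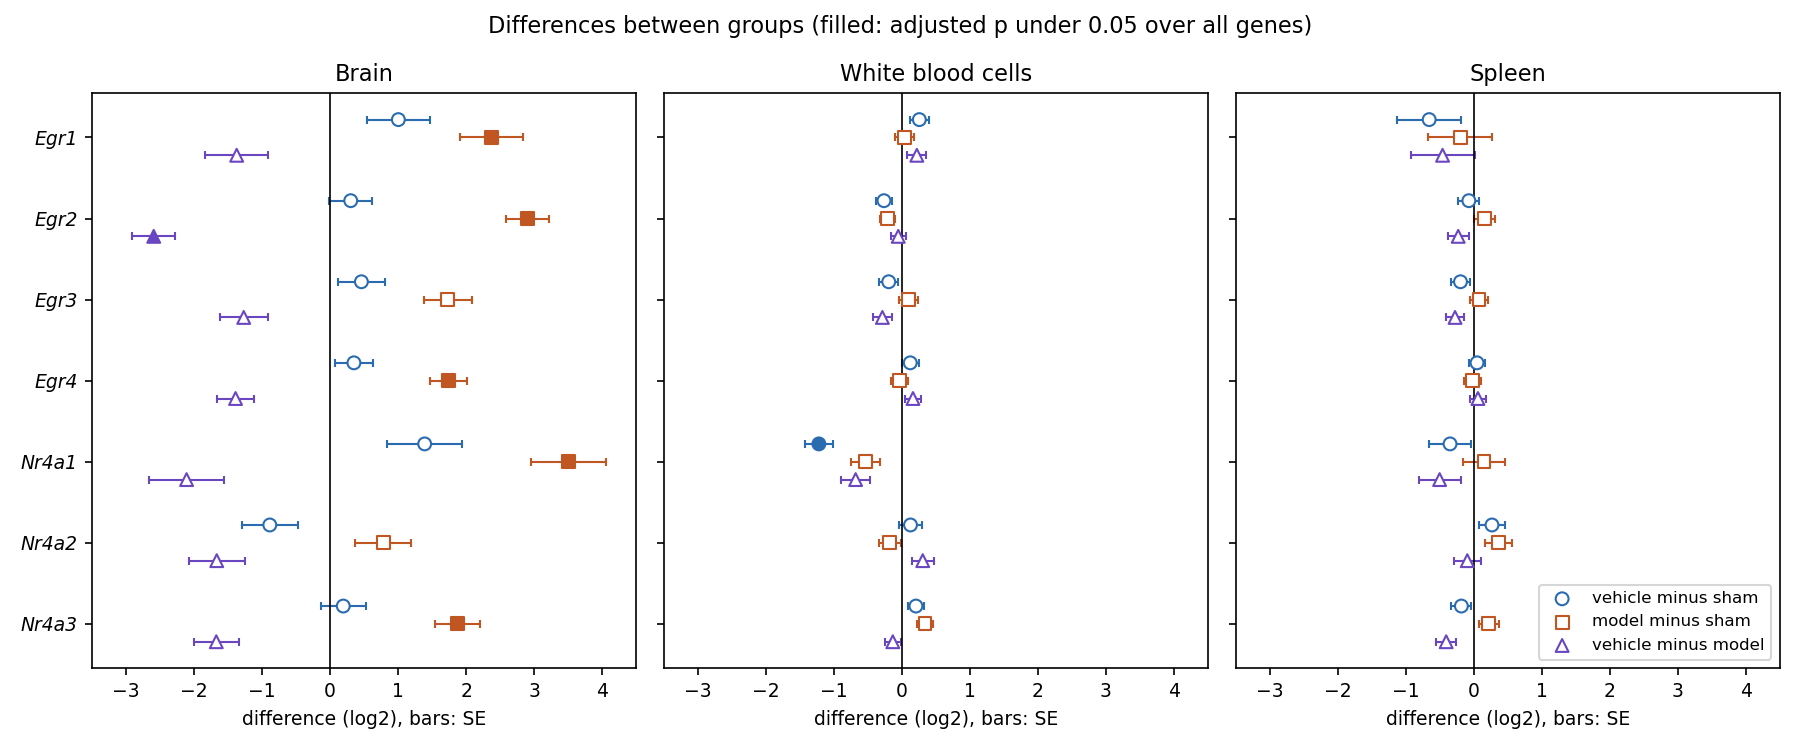
Differences between groups on the log2 scale with their standard errors, for the 7 genes in the 3 tissues; circles are vehicle minus sham, squares model minus sham and triangles vehicle minus model, and filled symbols passed at an adjusted p under 0.05 over all genes. In the brain the 7 squares lie right of 0 and the 7 triangles left of it, while in white blood cells only the Nr4a1 circle, at -1.22, is filled and in spleen none is.

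**Figure D3:**
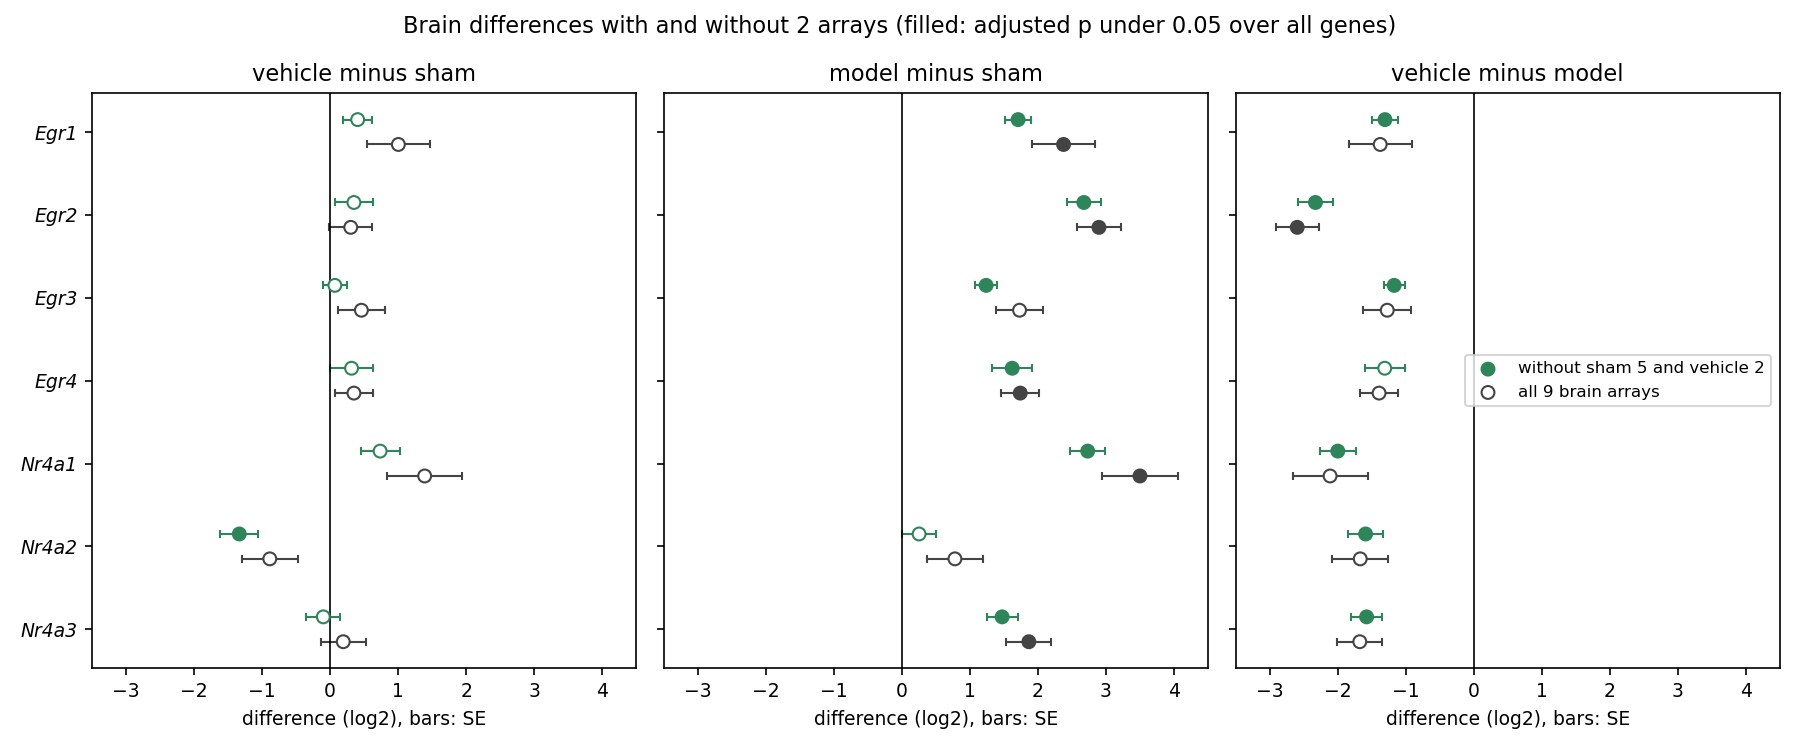
Brain differences on the log2 scale with standard errors, from all 9 arrays (grey) and without sham rat 5 and vehicle rat 2 (green); filled symbols passed at an adjusted p under 0.05. Without the pair, model-labelled brains differ from sham by 1.24 to 2.73 for the 6 filled genes, 6 genes are filled for vehicle minus model, and Nr4a2 is filled for vehicle minus sham.

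Replicate order within groups differed little between members. Model rat 1 was the highest model-labelled brain for 6 of 7 genes and model rat 2 the lowest for all 7. Vehicle rat 4 was the highest vehicle-labelled brain for 6 genes and vehicle rat 2 the lowest for 6. The median SD over the members was 0.26 in vehicle-labelled, 0.41 in model-labelled and 0.85 in sham brains.

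Markers of cell types and regions also varied between the brain groups. Endothelial markers (6) averaged -0.08 to -0.05 in vehicle-labelled, 0.16 to 0.38 in model-labelled and -0.03 to 0.04 in sham brains, relative to the sham mean, and 1 rose in model-labelled brains. Monocyte and macrophage markers (6) were at -0.05 to 0.68 in vehicle-labelled, 0.58 to 0.77 in model-labelled and -0.06 to 0.08 in sham brains, with 1 that rose in model-labelled brains. Neutrophil markers (9) were at 0.15 to 0.37, 0.52 to 0.81 and -0.15 to 0.14 in the same order with none called, and oligodendrocyte markers (7) at 0.34 to 0.99, -1.01 to 0.24 and -0.39 to 0.30 with none called. Neuron markers (6), of which none was called, lay between -0.31 and 0.30 in all 9 arrays. Choroid plexus markers (5) were at -0.28 to 1.15 in vehicle-labelled, 0.12 to 2.51 in model-labelled and -0.09 to 0.09 in sham brains, striatum markers (6) at -0.02 to 1.24, -0.09 to 1.59 and -0.52 to 0.49, and microglia markers (6) at -0.59 to -0.15, -0.41 to -0.15 and -0.15 to 0.10, in the same order. Hypothalamus and thalamus markers (10) had median differences of -1.16 for vehicle minus sham and -0.98 for model minus sham, with sham rat 5 high. None of these 4 lists had a called gene in either comparison. Genes within a list differed. Monocyte and macrophage markers had median differences from sham of 0.12 in vehicle-labelled and 0.45 in model-labelled brains, with highest values of 1.70 and 2.26. For microglia markers the medians were -0.14 and -0.05, with lowest values of -1.47 and -1.42. Endothelial markers ran from -0.60 to 0.79 in model-labelled brains. The part of these cell types and regions in the Egr and Nr4a differences was not tested.

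Genes around the 2 families were read from fixed lists. Of 14 measured upstream regulators 1 rose in model-labelled brains, Crem, a cAMP-responsive relative of CREB, by 1.13 ± 0.13 (adjusted p = 0.00324), with a list median of 0.12. Srf, the serum response factor, was at 0.73 ± 0.21 (adjusted p = 0.165). Of 9 partners and corepressors none passed. Nab2, itself an Egr-induced gene, was at 0.90 ± 0.32 in vehicle-labelled brains (adjusted p = 0.414) and at 0.74 ± 0.32 in model-labelled brains (adjusted p = 0.339) against sham. Its 2 values thus lay close to each other, and vehicle minus model was 0.15 ± 0.32 (adjusted p = 0.857). Nab1 was at 0.08 and -0.17 against sham in vehicle-labelled and model-labelled brains.

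Of 18 genes reported as Egr targets 2 rose in model-labelled brains. These were the prostaglandin E synthase gene Ptges, by 2.83 ± 0.31 (adjusted p = 0.00257), and the adhesion molecule gene Icam1, by 1.36 ± 0.22 (adjusted p = 0.0169). The list median was 0.41 beside 0.03 for all genes. In vehicle-labelled brains against sham the median was 0.49 beside 0.01, and for vehicle minus model -0.105 beside -0.0133. Of 10 genes reported as Nr4a targets 1 rose, the neurotrophin gene Bdnf, by 1.73 ± 0.33 (adjusted p = 0.0454), with a list median of -0.09. In vehicle-labelled brains Bdnf was at -0.02 ± 0.33 against sham. Th, the dopamine-synthesis enzyme whose gene Nr4a2 activates, was at -1.75 ± 0.75 in vehicle-labelled and -1.44 ± 0.75 in model-labelled brains, and neither passed. None of these 4 lists had a called gene in vehicle minus sham or vehicle minus model brains.

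Of 30 other immediate early genes 19 rose in model-labelled brains, where 1.08% of all genes rose. Their median difference was 1.76 beside 1.87 for the 7 members. By p the first were Npas4, Fos, Nfil3 and Zfp36, at 5.23, 4.01, 1.77 and 2.98. In vehicle-labelled brains 1 of 30 rose, the repressor gene Nfil3 (1.15 ± 0.14, adjusted p = 0.0300), and the list median was 0.69 where the median of the 7 members was 0.35. In vehicle minus model none of the 30 passed, and the medians were -1.02 for the list and -1.67 for the members. Differences between the members and these genes were not tested.

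Over the 9 brain arrays the closest patterns, by Pearson r among genes outside the families, were those of Srf (r = 0.98), Arc and Serpina3l for Egr1, of Il11 (0.99), Hlx and Arhgap31 for Egr2, of Arhgef3 (0.97), Arc and Wfdc15b for Egr3, and of Ccn1 (0.98), Nptx2 and Arhgap31 for Egr4. For Nr4a1 they were Dusp1 (0.98), Arc and Noct, for Nr4a3 Dusp4 (0.97), Mmp14 and Arhgef3, and for Nr4a2 Col3a1 (0.98), F2rl3 and Fgf4. Arc, which encodes a synaptic activity-regulated protein, was among the 3 closest for Egr1, Egr3 and Nr4a1. Over all 27 arrays less each tissue's mean, Junb was among the 3 closest for Egr1, Egr2, Egr4, Nr4a1 and Nr4a3, with r from 0.84 to 0.95, and the closest for Nr4a2 was Car4 at 0.80. Among the 7 members themselves, the 21 pairs had r from 0.65 to 0.98 over the 9 brain arrays, with Nr4a2 in each of the 6 lowest pairs, and from -0.68 to 0.88 over the 9 white blood cell arrays and -0.58 to 0.90 over the 9 spleens. The points share the 3 groups and the arrays, so these r values describe likeness of pattern alone.

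In white blood cells Nr4a1 was the 1 member that moved. In T cells Nr4a1 follows antigen receptor signalling, and in mouse the patrolling monocytes depend on it. In vehicle-labelled rats 2, 4 and 5 it read 7.21, 7.46 and 7.88. Model-labelled rats 1, 2 and 3 had 8.38, 7.95 and 8.26, and sham rats 3, 4 and 5 had 8.76, 9.15 and 8.30. All vehicle-labelled values lay under all model-labelled and all sham values, while model-labelled and sham values overlapped. Nr4a1 fell in vehicle-labelled cells against sham, with a difference of -1.22 ± 0.21 (0.43-fold, adjusted p = 0.00699), where 0.427% of all genes fell. The call held without each of the 9 arrays, with differences from -1.44 to -1.01 and adjusted p up to 0.0416. It was lost when all 27 arrays shared a variance (adjusted p = 0.230) and the spread of Nr4a1 in brain and spleen entered its error.

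Model-labelled cells were at -0.54 ± 0.21 against sham for Nr4a1 (adjusted p = 0.756), and vehicle minus model was -0.68 ± 0.21 (adjusted p = 0.190). In neither comparison was a member called, and at an unadjusted p under 0.05 there were 2 members, Nr4a1 and Nr4a3, in model minus sham and 1, Nr4a1, in vehicle minus model. Of all genes 0% passed in model minus sham, with 6.07% at an unadjusted p under 0.05, and 1.56% passed in vehicle minus model, with 10.9% at an unadjusted p under 0.05. Beside the lower Nr4a1, neutrophil markers averaged 1.46 to 1.95 above the sham mean in vehicle-labelled cells, 0.09 to 0.65 in model-labelled cells and -0.23 to 0.17 in sham cells. Of the 9, 6 rose in vehicle-labelled cells against sham, where 2.01% of all genes were called in either direction. Erythroid markers, all 7 of which rose in that comparison, were at 1.94 to 2.73, 0.70 to 0.82 and -0.26 to 0.39 in the same order. T cell markers were at -0.63 to 0.09, -0.03 to 0.26 and -0.31 to 0.38, and monocyte and macrophage markers between -0.19 and 0.23 in all 9 arrays, with none called in either list. The part of cell make-up in the Nr4a1 difference was not tested.

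The other 6 genes differed from sham by 0.34 or less in size in white blood cells, and none passed. Nr4a3 in model-labelled cells was at 4.97, 4.92 and 5.15, against 4.65, 4.58 and 4.79 in sham cells, without overlap (0.34 ± 0.12, adjusted p = 0.692), as 4.69% of all genes did in this direction. Without overlap in the lower direction were Egr2 in model minus sham (6.38% of all genes), Egr2 and Nr4a1 in vehicle minus sham (9.89%), and Egr3 and Nr4a1 in vehicle minus model (10.4%), and in the higher direction Egr1 in vehicle minus model (8.52%). At the nearest arrays the members other than Nr4a1 were apart by 0.01 to 0.13. Egr2, at 3.97 to 4.41 in all 9 arrays, lay under each array's median probe value, as did Nr4a3 in 8 of 9 arrays and Nr4a2 in 7 of 9, so for these genes a change in a dim signal may not be seen. Egr1 had 6.17, 6.19 and 6.56 in vehicle-labelled, 6.13, 6.10 and 6.03 in model-labelled and 6.31, 5.96 and 5.88 in sham cells. Its 95% interval for vehicle minus sham was -0.05 to 0.56 and that for model minus sham -0.27 to 0.34, which leaves out changes of the size seen for Egr1 in model-labelled brains. Egr3 and Egr4 lay between 5.51 and 6.10 in all 9 arrays.

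**Figure D4:**
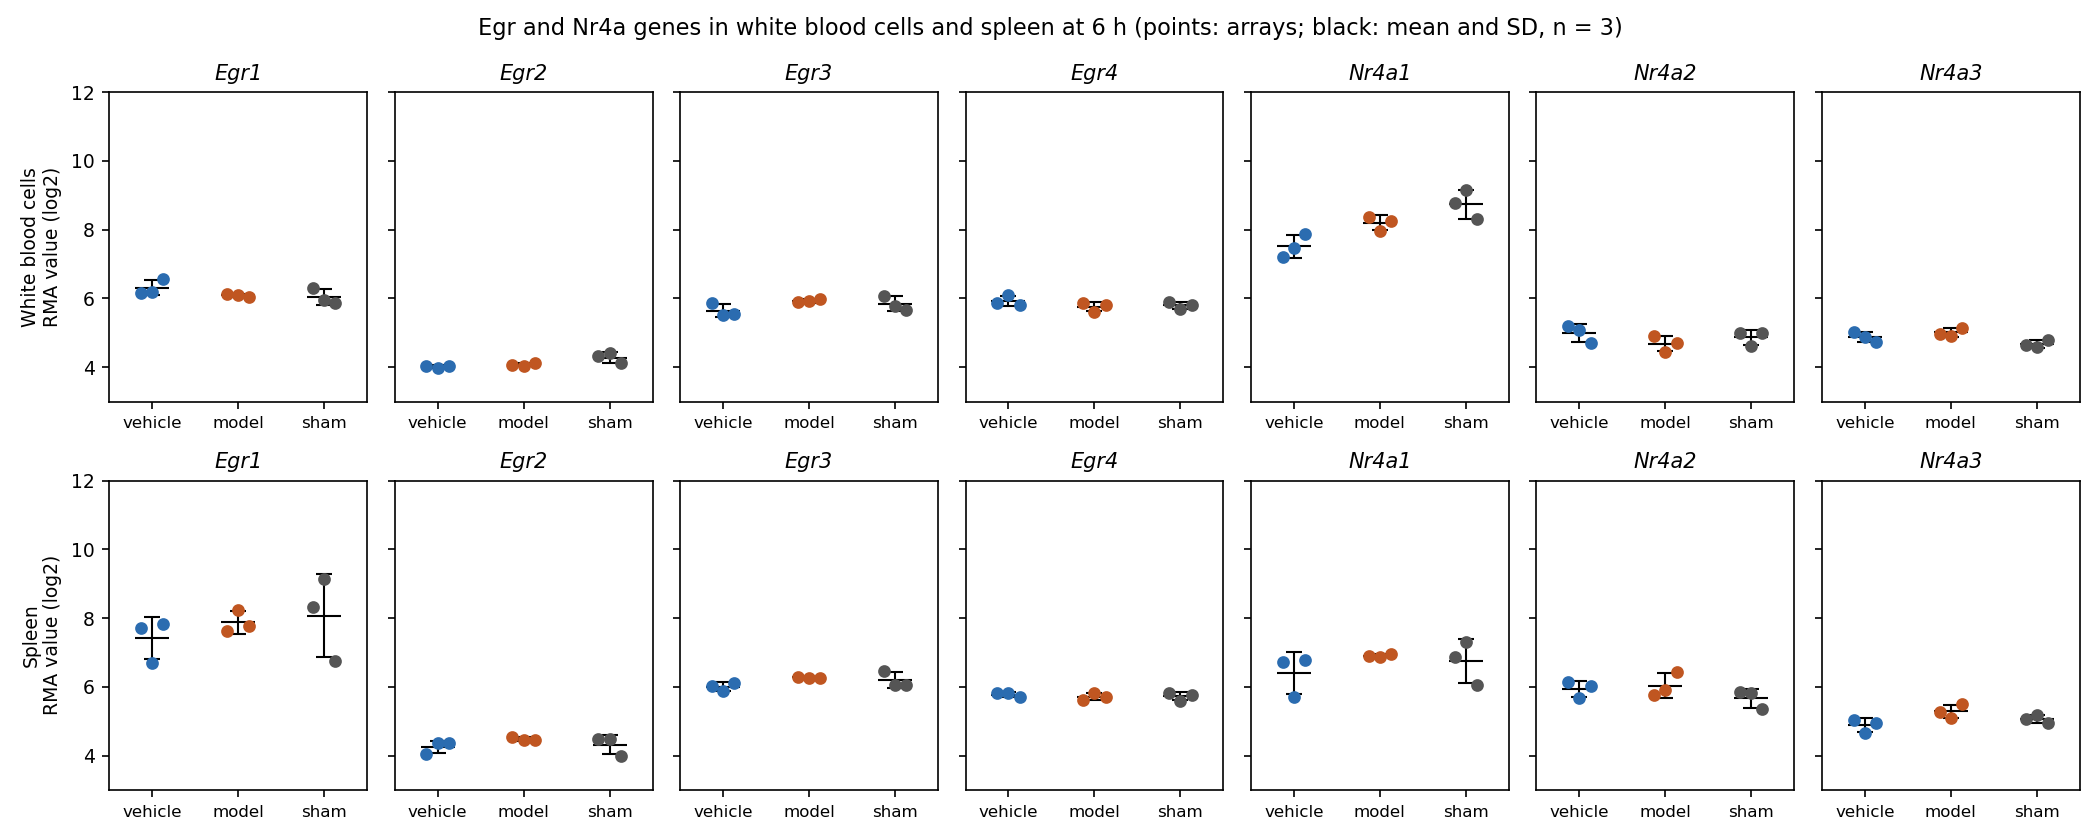
RMA values (log2) of the 7 genes in white blood cells (top) and spleen (bottom), with vehicle-labelled, model-labelled and sham rats from left to right; points are arrays in order of replicate number and black marks the mean and SD of 3. Nr4a1 in white blood cells is lowest in vehicle-labelled rats (7.21 to 7.88), and Egr1 in sham spleens spans 6.76 to 9.14.

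In the spleen no member passed in any of the 3 comparisons, in which limma called 0.0483% of all genes for vehicle minus sham, 0.0414% for model minus sham and 0% for vehicle minus model. At an unadjusted p under 0.05 there was 1 member, Nr4a3 in vehicle minus model, where 12.9% of all genes were under that level; for all genes the shares were 9.35% in vehicle minus sham and 9.5% in model minus sham. Egr1 varied most within groups. It read 7.72, 6.71 and 7.83 in vehicle-labelled, 7.62, 8.24 and 7.77 in model-labelled and 8.32, 9.14 and 6.76 in sham spleens, so the sham spread (SD 1.21) was wider than any difference between group means. Its intervals were -1.68 to 0.37 for vehicle minus sham and -1.22 to 0.83 for model minus sham.

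Nr4a1 read 6.72, 5.71 and 6.78 in vehicle-labelled, 6.90, 6.86 and 6.95 in model-labelled and 6.87, 7.32 and 6.06 in sham spleens. The lowest array was that of vehicle rat 4, which was also the lowest vehicle-labelled spleen for 5 of the 7 genes, and in which T cell markers lay 1.04 and B cell markers 0.73 under the sham mean, the lowest of the 9 spleens for both lists. Their part in its low values was not tested. Vehicle-labelled spleens lay under model-labelled spleens without overlap for Egr2, Egr3, Nr4a1 and Nr4a3, by 0.06 to 0.15 at the nearest arrays, in a direction in which 11.2% of all genes were separated. The differences were -0.23 ± 0.15, -0.27 ± 0.14, -0.50 ± 0.31 and -0.40 ± 0.15, with adjusted p from 0.273 to 0.585. Egr2 lay under the median probe value of the array in all 9 spleens. Nr4a3 did so in 3 vehicle-labelled, 1 model-labelled and 2 sham spleens. For both genes a change in a dim signal may not be seen. In the same spleens exocrine pancreas markers (6) were at 0.37 to 1.28 in vehicle-labelled, -0.07 to 0.09 in model-labelled and -0.16 to 0.13 in sham rats, relative to the sham mean, and platelet markers (3) at 0.14 to 0.63, -0.56 to -0.09 and -0.60 to 0.30. Endothelial markers (6) were at -0.24 to 0.16, 0.19 to 0.50 and -0.19 to 0.17, and monocyte and macrophage markers (6) at -0.36 to 0.01, 0.10 to 0.25 and -0.03 to 0.05. T cell markers were at -1.04 to 0.31, 0.23 to 0.30 and -0.34 to 0.43. No marker of these lists was called in vehicle minus model spleens, and their part in the differences was not tested. Nr4a2 was at 5.68 to 6.13 in vehicle-labelled, 5.77 to 6.44 in model-labelled and 5.36 to 5.85 in sham spleens, and Egr4 stayed between 5.59 and 5.83 in all 9.

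A fit of all 27 arrays compared each brain difference with that of the other tissues. It gave each gene 1 variance over all 3 tissues, although spreads differed. The members' median SD in sham rats was 0.85 in brain, 0.22 in white blood cells and 0.27 in spleen. Quieter tissues can thus make the error of a brain difference too small here. For model minus sham, Egr3 had an SE of 0.35 here as in brain alone, where it did not pass (adjusted p = 0.0541). The model minus sham difference was larger in brain than in white blood cells for Egr2, Egr3, Egr4, Nr4a1 and Nr4a3, and larger than in spleen for the same 5, whereas such a larger difference in brain was found for 0.986% and 0.689% of all genes. For Nr4a1 the brain exceeded the white blood cells by 4.04 ± 0.62 (adjusted p = 0.000423) and the spleen by 3.35 ± 0.62 (adjusted p = 0.00451). Egr1 missed the threshold, at 2.34 ± 0.64 against white blood cells (adjusted p = 0.0845) and 2.57 ± 0.64 against spleen (adjusted p = 0.0562). It passed in both when the rat was a block that links the tissues (adjusted p = 0.0458 and 0.0292). Nr4a2 did not pass, at 0.96 ± 0.44 against white blood cells (unadjusted p = 0.0379, adjusted p = 0.375) and 0.42 ± 0.44 against spleen (adjusted p = 0.777).

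For vehicle minus sham, 1 of 7 differences was larger in brain than in white blood cells, that of Nr4a1 (2.61 ± 0.62, adjusted p = 0.0422; 0.421% of all genes), and none of 7 differed between brain and spleen, where 0.145% of all genes did and 3 members, Egr1, Nr4a1 and Nr4a2, had an unadjusted p under 0.05. The brain value of Nr4a1 that enters here did not itself pass, and the white blood cell value had the opposite sign. For vehicle minus model, the brain was more negative than white blood cells for Egr2, Egr4, Nr4a2 and Nr4a3 (0.303% of all genes), and more negative than spleen for Egr2 and Egr4 (0.2% of all genes). With the rat as a block Nr4a3 passed against spleen as well (adjusted p = 0.0499). Between white blood cells and spleen none of the 7 differed in any of the 3 comparisons by limma, and no member had an unadjusted p under 0.05, where 0.772% of all genes differed for vehicle minus sham, 0% for model minus sham and 0.0276% for vehicle minus model.

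Levels across tissues are set side by side for the same probe, and the labels do not say whether RMA was run over the tissues together. Nr4a2 was the member with the plainest order of tissues. All 9 brain arrays (7.50 to 9.81) lay above all 9 spleens (5.36 to 6.44), and those above all 9 white blood cell arrays (4.45 to 5.19). In sham rats brain exceeded white blood cells by 3.68 ± 0.31 (adjusted p = 1.67e-10) and spleen by 2.88 ± 0.31 (adjusted p = 1.5e-08), and white blood cells lay under spleen by -0.80 ± 0.31 (adjusted p = 0.0422). Of all genes 59% differed between sham brain and white blood cells, 53.6% between brain and spleen and 39% between white blood cells and spleen, so a difference between tissues is common on these arrays.

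Nr4a1 had another order. In sham rats it was lower in brain than in white blood cells by -2.09 ± 0.44 (adjusted p = 0.000214), and higher in white blood cells than in spleen by 1.99 ± 0.44 (adjusted p = 0.000808), while brain minus spleen was -0.10 ± 0.44 (adjusted p = 0.880). Among its 9 group means, model-labelled brain stood first at 10.15 ± 0.36 (SD, n = 3), 0.70 above the highest array of any other group, which was a sham white blood cell array (mean 8.74 ± 0.43). Model-labelled white blood cells, vehicle-labelled brain and vehicle-labelled white blood cells followed with overlapping neighbours, then model-labelled spleen, sham spleen, sham brain and vehicle-labelled spleen. Vehicle-labelled white blood cells were 0.26 above model-labelled spleens at the nearest arrays, but overlapped with the sham spleens and sham brains.

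For Egr1, sham white blood cells were lower than sham brain and sham spleen, by 2.07 ± 0.46 and 2.02 ± 0.46 (adjusted p = 0.000380 and 0.00101). Model-labelled brain stood first at 10.49 ± 0.37, 0.89 above the highest array of any other group, then vehicle-labelled brain at 9.12 ± 0.12, which was above all sham brains but overlapped with the sham spleens. Sham brain and the 3 spleen groups followed, overlapping in turn, and last the white blood cells. Egr2, Egr3 and Egr4 did not pass between any pair of sham tissues. Egr2 lay under the array median in every sham array of the 3 tissues, so its like readings do not show like expression. In each of Egr2, Egr3, Egr4 and Nr4a3, the lowest model-labelled brain lay above every array of the 8 other groups. The gap was 1.78 for Egr2, 0.92 for Egr3, 0.89 for Nr4a3 and 0.57 for Egr4. Among those 8 groups, neighbours in the order of means overlapped, except vehicle-labelled brain over model-labelled spleen for Egr3, 0.10 apart. Nr4a3 was at 0.52 ± 0.23 for sham brain minus white blood cells (adjusted p = 0.0585), which passed with the rat as a block (adjusted p = 0.0472).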

How the data were processed

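Biotin-labelled material from total RNA was hybridised to Affymetrix rat gene arrays, per the labels' protocols. RMA was used by the authors, per the submitters' processing notes; its version is not given in the sources used here. No label names the scale, and the deposited values were read as log2 intensities from their range (1.53 to 13.49) and their array medians (4.96 to 5.31). Of 27596 probes, 15310 had 1 gene symbol in the platform annotation, 323 several and 11963 none listed. Entrez identifiers matched a RefSeq gene table for 15279 and changed 0 symbols. The probe with the highest mean over 27 arrays was kept, leaving 14506 genes. The 7 members have 1 probe each.

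Groups and replicate numbers came from the sample titles. The tests were limma's moderated 2-sided tests (version 3.58.1, R version 4.3.3), run for each tissue on its 9 arrays with a mean per group (6 residual degrees of freedom). Differences between tissues, also those between sham tissues, used all 27 arrays with 1 variance per gene (18 residual degrees of freedom). P-values were adjusted by Benjamini-Hochberg over all genes. Replicates were separate rats, 3 per group, whose number limits the precision. On simulated brain data with 14506 genes, 76% of 100 genes changed by 1 and 94% of 100 changed by 2 were recovered in model minus sham, beside 10 false calls. Recovery for the 7 members, with brain SE from 0.28 for Egr4 to 0.55 for Nr4a1, was not tested.

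Named genes were the 7 members in full, up to 4 called genes of each list per comparison by p, and the 3 genes closest to each member in pattern; Srf, Nab1, Nab2, Th and the second mention of Bdnf were added after their values were seen. The members, lists and alternatives were chosen with earlier results of these data known. A number within a group is taken from the titles to mark 1 rat across tissues; residuals of such arrays correlated over genes with r from -0.06 to 0.52, above 0.1 in 15 of 27 pairs. As alternatives, the fit took all 27 arrays or only the groups compared, array weights, a trended and robust prior, or a block (replicate number, rat); values were quantile normalized, median centred, averaged over a gene's probes or filtered at the 40th percentile; the threshold was raised to 0.10; and each array, or the pair of brain arrays that stood apart, was left out.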

Additional observations from a re-analysis of the deposited data

Results flagged for a closer look

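A test of the difference between tissues, with the variance shared by the tissues as described above, picked out 17 results. For model minus sham, the brain difference exceeded that of white blood cells by 3.11 for Egr2, 1.64 for Egr3, 1.78 for Egr4, 4.04 for Nr4a1 and 1.53 for Nr4a3. It exceeded that of spleen by 2.74 for Egr2, 1.65 for Egr3, 1.75 for Egr4, 3.35 for Nr4a1 and 1.64 for Nr4a3. For vehicle minus sham, the brain exceeded white blood cells by 2.61 for Nr4a1. For vehicle minus model, the brain difference minus that of white blood cells was -2.54 for Egr2, -1.55 for Egr4, -1.97 for Nr4a2 and -1.54 for Nr4a3, and minus that of spleen it was -2.37 for Egr2 and -1.45 for Egr4. With 3 arrays per group, no group was large enough to test single arrays as outliers.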

How the results depend on the processing

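Counts are of the 7 genes called, with the share of all genes called in either direction in parentheses. For brain, model minus sham gave 5 (1.16%), and 3 with only the 2 groups compared (1.21%) or with a variance trend and robust prior (1.14%). Vehicle minus model gave 1 (0.0551%), and 6 with all 27 arrays (2.39%) or with array weights (0.848%), 0 with only the 2 groups (0%). Without sham rat 5 and vehicle rat 2, vehicle minus sham gave 1 (1.54%) in place of 0 (0.0483%) and vehicle minus model 6 (0.434%). Leaving out 1 array at a time gave 1 to 6 (70 to 256 of all genes) for model minus sham and 0 to 6 (0 to 40 of all genes) for vehicle minus model. In white blood cells, vehicle minus sham gave 0 (1.39%) in place of 1 (2.01%) with all 27 arrays, and vehicle minus model 1 (3.83%) in place of 0 (1.56%) with array weights.

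Same-numbered arrays of a tissue correlated in their residuals with r from -0.47 to 0.38, above 0.1 in 2 of 12 pairs. So few pairs do not settle whether the numbers link rats of different groups, and the main fits used no such pairing. With a replicate block the counts were 0 for model minus sham and for vehicle minus model in brain (0% of all genes in each) and 0 for vehicle minus sham in white blood cells (0.738%), where Nr4a1 was at -1.09 (adjusted p = 0.199). The block also turned the sign of uncalled values: in white blood cells model minus sham was -0.014 for Egr1 and -0.108 for Egr3. In spleen model minus sham was -0.052 for Egr3 and -0.074 for Nr4a1, vehicle minus sham 0.002 for Egr2 and vehicle minus model 0.008 for Nr4a2.

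Between tissues, brain against white blood cells for vehicle minus sham gave 0 in place of 1 with quantile normalization (0.62%) or the variance trend (0.682%), against 0.862%, 2 with array weights (2.9%) or without the pair (1.39%), and 0 to 2 without 1 rat. For model minus sham it gave 3 to 6 without 1 rat, and for vehicle minus model 1 to 6. Brain against spleen for vehicle minus sham gave 1 in place of 0 (0.145%) with array weights (2.19%) or without the pair (0.986%). For vehicle minus model it gave 1 in place of 2 (0.6%) with the 40th percentile filter (0.85%), 4 with array weights (2.31%) or an adjusted p under 0.10 (1.72%), 5 without the pair (0.62%) and 1 to 6 without 1 rat, and for model minus sham 2 to 6 without 1 rat. Sham brain against white blood cells gave 5 in place of 3 (59%) with array weights (59.5%) or without the pair (54.6%), and 3 to 5 without 1 rat, and sham brain against spleen 3 in place of 1 (53.6%) without the pair (53%).

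With the rat as a block, only the 4 calls of Egr1 and Nr4a3 given above changed among the tests between tissues. Other values that changed sign had not passed the threshold. Without the pair, Nr4a3 in brain vehicle minus sham was -0.10, Nr4a2 in brain minus spleen for model minus sham -0.11, and Nr4a1 in sham brain minus spleen 0.67, against 0.34 with array weights and -0.43 to 0.32 without 1 rat. Egr4 in white blood cells, model minus sham, was 0.018 with array weights. Without 1 array, brain vehicle minus sham ranged from -0.032 to 0.72 for Egr3 and -0.20 to 0.47 for Nr4a3. In white blood cells model minus sham ranged from -0.10 to 0.037 for Egr4, -0.048 to 0.17 for Egr1 and -0.0017 to 0.21 for Egr3. In spleen vehicle minus sham ranged from -0.23 to 0.033 for Egr2 and -0.02 to 0.10 for Egr4, vehicle minus model from -0.23 to 0.11 for Nr4a2, and model minus sham from -0.083 to 0.04 for Egr4, -0.85 to 0.34 for Egr1, -0.0067 to 0.24 for Egr2 and -0.19 to 0.44 for Nr4a1. The causes were not tested. The 40th percentile filter removed Egr2, Nr4a2 and Nr4a3 in white blood cells and Egr2 in spleen, where it gave no value.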
